A study of Mus musculus with 18 samples.

Results

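Mouse chromosome 10 was examined in NIH/3T3 cells, an established line of mouse embryonic fibroblasts, as the set of its genes that had at least 10 reads in at least 3 of the 6 mRNA libraries. Of the 2622 chromosome 10 genes in the mRNA count files, 692 met this rule, out of 55401 genes listed and 14846 that met the same read minimum genome-wide. Of the chromosome's other genes, 1315 had no read and 615 had some but fell short of the minimum, with at most 21 reads in a library. The cells were wild-type (WT) or carried a CRISPR-Cas9 knockout of XPO4 (KO), the gene for the nuclear export receptor Exportin 4, and the labels give no other treatment or allele. There were 3 mRNA libraries of each genotype, and 2 circRNA libraries of each genotype from whole cells, from cytoplasm and from nuclei, the RNA of which was treated with RNase R to remove linear RNA. The number of KO clones is not given in the sources used here. Nothing states that the replicates came from separate cultures, so p-values measure only the spread between these libraries, which may be technical.

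The amount of RNA made from a chromosome tends to follow the number of its copies, because each copy is transcribed and most genes are only partly buffered against a change in dosage. Long-passaged lines such as 3T3 cells are aneuploid, and subclones of one line can differ in the copy number of a whole chromosome. A change in copy number tends to shift many genes of the chromosome together, and a change in one regulatory pathway can reach genes on many chromosomes. Whether either took place here was not tested. DNA copy number was not analysed here. The KO against WT mRNA values of chromosome 10 were known when the chromosome was chosen, so the comparison of its genes with those of other chromosomes is a description without a test.

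The labels were checked first. Xpo4 itself, on chromosome 14, had 712, 504 and 687 reads in the libraries labelled KO and 657, 614 and 685 in those labelled WT, a log2 difference of 0.18 ± 0.11 (SE, n = 3 and 3, edgeR adjusted p = 0.189). Without KO replicate 2 the difference was 0.33 and passed the test (edgeR adjusted p = 0.00029). The level of Xpo4 mRNA therefore did not check the labels. Inside each of the 6 mRNA files the count column is headed with the opposite genotype. Groups here are those of the titles, and every mRNA direction below would turn if the headings were right. The Y-linked genes Kdm5d, Eif2s3y, Uty and Ddx3y had reads in the 3 KO mRNA libraries (100 to 594 reads per gene) and 0 reads in the 3 WT ones. The whole-cell circRNA libraries of both genotypes listed the same 4 Y-linked circRNAs, with 19 and 24 reads in KO and 10 and 12 in WT. All 4 circRNAs lie within the span of Uty. Y-linked RNA was thus detected in the WT circRNA libraries and not, for Kdm5d, Eif2s3y, Uty and Ddx3y, in the WT mRNA libraries. Gm29650, also Y-linked, had 34 to 45 mRNA reads in KO and 0 in WT. Other Y-linked genes did have mRNA reads in WT. Gm47283 had 1592 to 1885 (905 to 1641 in KO), and Gm3376 had 2 to 7 (13 to 20 in KO). Whether both assays used the same WT cells was not tested. The mRNA libraries held 16974062 to 22057323 counted reads. The 8 fibroblast marker genes summed to 20440 to 23560 CPM (counts scaled to a library total of 1e6 reads) in every library. The 4 leukocyte markers summed to 5.32 to 6.25 CPM in KO and 10.1 to 12.6 in WT. They did not move together. Ptprc (mean 1.50 CPM in KO, 5.16 in WT) and Cd68 (3.65 and 5.98) were higher in WT. Lyz2 was higher in KO (0.65 and 0.098), and Cd3e had 0 reads.

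Chromosome 10 supplied a larger share of the mRNA reads in the KO libraries. Its genes took 6.30%, 6.31% and 6.20% of all counted reads in the 3 KO libraries and 4.69%, 4.68% and 4.70% in the 3 WT libraries, or 6.27% ± 0.0639 (SD, n = 3) against 4.69% ± 0.00889 (SD, n = 3). The groups did not overlap, and the gap was many times the spread within each. It did not rest on the most abundant transcripts. With the 50 most abundant genes of the chromosome left out, the share was 3.24%, 3.16% and 3.22% in KO and 2.33%, 2.31% and 2.31% in WT. In a bulk library, more cells with a high level and a higher level in every cell cannot be told apart.

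Gene by gene, 455 of the 692 members were higher in KO and 57 lower, and 180 did not pass the test (edgeR quasi-likelihood test, adjusted p under 0.05 over all genes tested). Over all 14846 genes, 25.0% were called higher and 23.4% lower. In 462 members each KO library lay above each WT library in CPM, in 70 each lay below, and in 160 the genotypes overlapped, where the background over all genes was 28.9% above and 28.7% below. The high background shows that the KO and WT libraries differed across the genome, and the members' counts are read against it.

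The median member was 0.45 higher in KO on the log2 scale, or 1.36-fold, with quartiles at 0.16 and 0.73, and 81.5% of members had a value above 0. The 13683 genes of the other 18 autosomes had a median of -0.02, quartiles at -0.30 and 0.24, and 47.9% above 0. Chromosome 10 thus lay 0.47 above them on the log2 scale, or 1.38-fold. The medians of the other autosomes ran from -0.21 on chromosome 1 to 0.16 on chromosome 3, and the chromosome with the next largest share of genes called higher was chromosome 3 at 38.6%, against 65.8% on chromosome 10. Relative to the other autosomes, and as the median deviation of its genes from their mean over the 6 libraries, chromosome 10 lay at 0.24, 0.24 and 0.22 in the KO libraries and at -0.24, -0.24 and -0.23 in the WT libraries on the log2 scale.

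**Figure D1:**
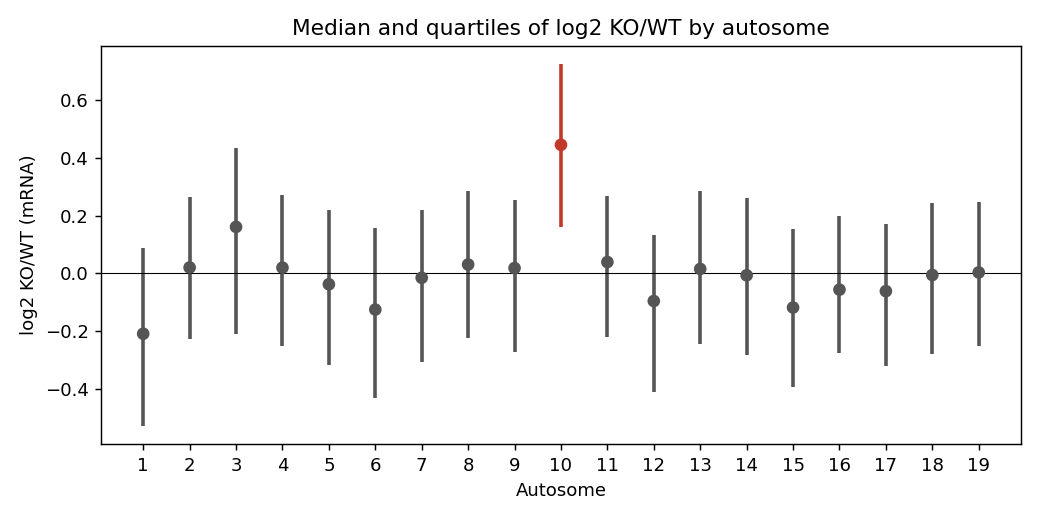
Median (point) and quartiles (bar) of log2 KO/WT in mRNA for the tested genes of each autosome, with chromosome 10 in red. The chromosome 10 median of 0.45 lies above those of the other 18 autosomes, which run from -0.21 to 0.16. Its bar lies above those of chromosomes 1, 6, 12 and 15 and overlaps those of the other autosomes.

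The members varied about their own median as much as other genes did about theirs. The distance between the quartiles was 0.56 on chromosome 10 and 0.47 to 0.64 on the other autosomes. Of the members, 323, or 46.7%, lay within 0.25 log2 units of the chromosome 10 median, against 47.2% of the genes of the other autosomes around theirs. There were 34 members more than 1 log2 unit above the chromosome's median and 46 more than 1 below, or 4.91% and 6.65%, where the other autosomes had 4.09% and 5.99%.

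The shift was present along the length of the chromosome. In the 13 windows of 10 Mb with at least 10 members, the median log2 difference was above 0 throughout and ran from 0.27 between 10 and 20 Mb, where 33 members lie, to 0.57 between 40 and 50 Mb, with 36 members. The medians of the windows from 60 Mb to 130 Mb, which hold most of the members, lay between 0.41 and 0.49. In each of the 13 windows the median deviation was higher in the 3 KO libraries than in the 3 WT libraries. The last window held 1 member, at -0.05. Of 236 windows of the same size on other autosomes, 4, or 1.69%, reached 0.27, and 45.3% lay above 0. Each of the 13 medians was thus above the other autosomes' median of -0.02. In 5 Mb windows, the 22 with at least 10 members had medians of 0.17 to 0.62. The lowest were 0.17 at 25 to 30 Mb and 0.18 at 10 to 15 Mb. There 38.9% and 38.1% of members were called higher, near the 38.6% of chromosome 3, and 22.2% and 9.52% lower. Windows of 5 Mb on other autosomes were not examined.

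**Figure D2:**
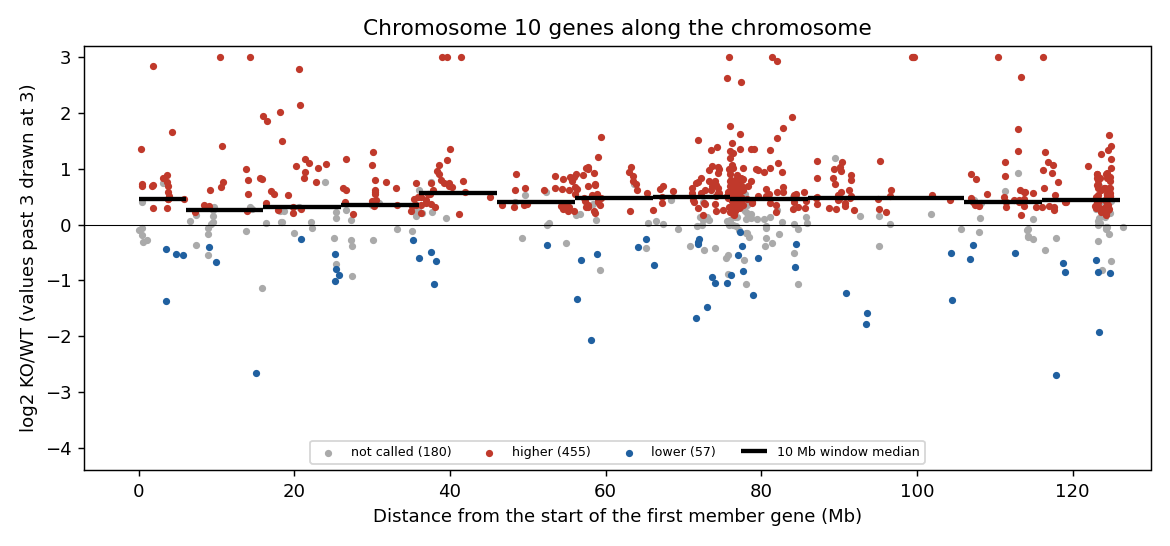
Log2 KO/WT in mRNA of the 692 chromosome 10 genes (points, coloured by the edgeR call) against the distance of each gene's start from that of the first gene, in Mb, with the median of each 10 Mb window of at least 10 genes as a black bar. The 13 window medians lie between 0.27 and 0.57, the 12 genes above 3 are drawn at 3, and genes called lower are scattered along the whole length.

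The members' values were also set out by level and class, each beside the same kind of gene on other autosomes. With all tested genes split into tertiles of expression, members in the high and middle tertiles had medians of 0.47 and 0.47 and those in the low tertile 0.34, while genes of the other autosomes in the same tertiles had 0.00, 0.02 and -0.17. The 595 protein-coding members had a median of 0.48 against 0.00 elsewhere. The 42 long noncoding RNA genes had 0.24, where such genes on other autosomes had -0.29. The 42 pseudogenes had a median of 0.04, against -0.06 elsewhere, and reads of a pseudogene can come from a near-identical parent gene on another chromosome. Members on the plus and minus strands had medians of 0.42 and 0.47.

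Members were then grouped by function, in lists drawn up with earlier results of these data known, which are therefore no independent evidence of a direction. Their counts are read beside those of all members, of which 65.8% were higher and 8.24% lower. List medians ran from 0.21 to 0.52. Of the 9 mitochondrial and energy genes 8 were higher and none lower, with a median of 0.52. Atp5b, the beta subunit of ATP synthase, had 24230, 25515 and 22816 reads in KO and 16985, 17444 and 19515 in WT, a log2 difference of 0.65 ± 0.05 (SE). Citrate synthase (Cs) stood at 0.61 ± 0.05, the mitochondrial transcription factor Tfam at 0.49 ± 0.06 and hexokinase 1 (Hk1) at 0.52 ± 0.06, each past the test (edgeR). Shmt2, a mitochondrial enzyme of one-carbon metabolism, was at 0.02 ± 0.06 and did not pass. The narrow range of the 8 genes, from 0.35 to 0.80, sat around the chromosome's median.

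**Figure D3:**
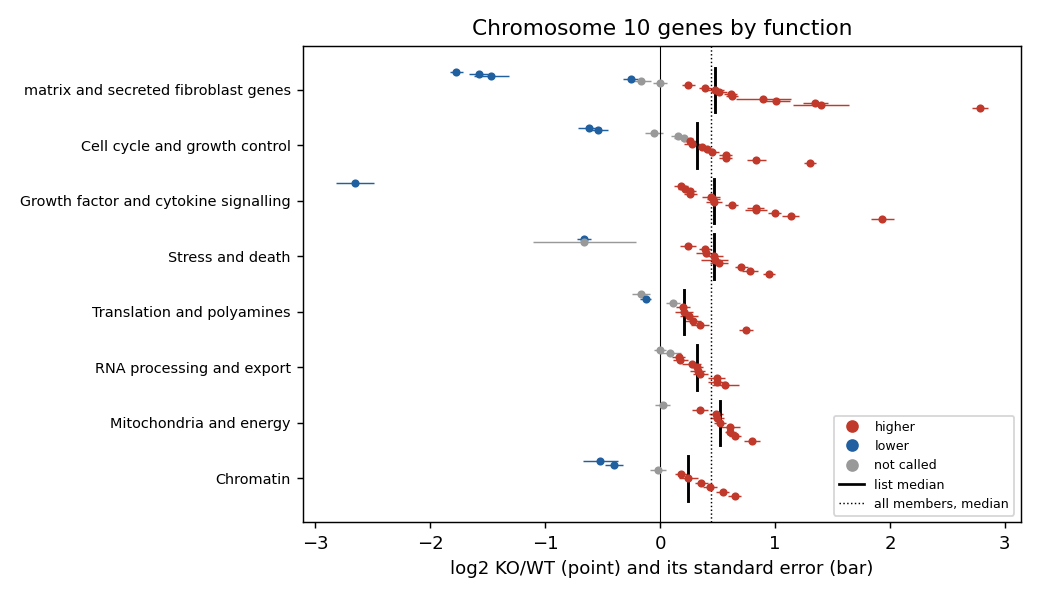
Log2 KO/WT in mRNA (points) with its standard error (bars) for chromosome 10 genes in 8 functional lists, coloured by the edgeR call, with each list's median as a black bar and the median of all members, 0.45, as a dotted line. List medians lie between 0.21 and 0.52, and the matrix list spreads from -1.77 to 2.78.

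Of the 14 genes of growth factor and cytokine signalling 13 were higher and 1 lower, with a median of 0.47. Igf1, a secreted growth factor, had 484, 476 and 495 reads in KO and 135, 158 and 150 in WT, a log2 difference of 1.94 ± 0.10. Dusp6, the phosphatase that restrains ERK signalling, rose by 1.14 ± 0.07, the interferon gamma receptor Ifngr1 by 0.83 ± 0.08, and Stat6 by 0.62 ± 0.06. The one member lower in KO was Tnfaip3 (A20), a deubiquitinase that limits NF-kB signalling, with 49, 53 and 28 reads in KO and 321, 300 and 335 in WT, a log2 difference of -2.66 ± 0.17. The calls of Stat2 and Kitl depended on the setting. That of Stat2 was lost with DESeq2 (adjusted p = 0.0664), without a filter on low counts (edgeR adjusted p = 0.065) and without KO replicate 1 or 3 or WT replicate 1 or 2 (edgeR adjusted p = 0.0998, 0.0645, 0.073 and 0.141), and that of Kitl without KO replicate 1 or WT replicate 3 (edgeR adjusted p = 0.0521 and 0.0698).

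Of the 14 cell cycle and growth control genes 9 were higher and 2 lower, with a median of 0.32. Hmga2, a chromatin protein of fetal and transformed cells, had 7474, 7793 and 7860 reads in KO and 3538, 3472 and 3927 in WT, a rise of 1.30 ± 0.05 log2 units. Cdk1, Cdk4 and Mdm2, the first 2 being kinases that drive the cycle and the last the ubiquitin ligase of p53, rose by 0.57 ± 0.06, 0.41 ± 0.06 and 0.45 ± 0.06. The 2 lower genes were Gadd45b, a stress-induced growth regulator, at -0.54 ± 0.08, and E2f7, a repressor of cell cycle genes, at -0.62 ± 0.10. Cdk19 and Btg1 did not pass the test. Cdk19 passed without KO replicate 2 (edgeR adjusted p = 2.5e-05), with TMM factors computed without chromosome 10 (0.0359) and without a filter on low counts (0.0154), and Btg1 without KO replicate 1 (0.0209) and under the same other settings (0.0405 and 0.0410).

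Of the 11 stress and cell death genes 9 were higher and 1 lower, with a median of 0.47. The endoplasmic reticulum chaperone Hsp90b1 had 12448, 12948 and 12518 reads in KO and 7227, 7509 and 8201 in WT, a rise of 0.95 ± 0.05. Gpx4, which reduces lipid peroxides, rose by 0.51 ± 0.08, and Foxo3, a transcription factor of stress resistance, was lower at -0.66 ± 0.06 with 1322 to 1477 reads in KO and 2393 to 2668 in WT.

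Of the 11 RNA processing and export genes 9 were higher and none lower, with a median of 0.32. Sarnp, a partner of the mRNA export complex TREX, was at 0.57 ± 0.12, Xpot, the exportin of tRNA, at 0.32 ± 0.06 and the nuclear pore component Nup107 at 0.33 ± 0.06. Ptbp1, a splicing repressor, was at 0.00 ± 0.05, and Adarb1, an RNA-editing enzyme, at 0.09 ± 0.09, neither past the test. Calls were lost for Cpsf6 (edgeR adjusted p = 0.0548 to 0.143 without KO replicate 1 or 3 or WT replicate 1 or 3), Pan2 (0.0507 to 0.148 without any library but KO replicate 2, 0.0587 with DESeq2 and 0.0562 without a filter) and Snrpf (0.0528 and 0.0582 without KO replicate 2 or WT replicate 1).

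Translation and polyamine genes had the lowest list median, 0.21, with 6 of 9 higher and 1 lower. Oaz1, which targets ornithine decarboxylase for degradation, had 11854, 12915 and 10357 reads in KO and 7816, 7742 and 8793 in WT, a rise of 0.75 ± 0.06. The ribosomal protein genes were nearer to 0. Rpl41 stood at 0.35 ± 0.08, Rps15 at 0.25 ± 0.08, Rps12 at 0.21 ± 0.08 and Rps26 at -0.17 ± 0.08, which did not pass. Eef2, the translocase of the ribosome and the gene with the most reads on the chromosome, had 74309, 76379 and 67804 reads in KO and 89910, 87515 and 100766 in WT, a log2 difference of -0.13 ± 0.05 (edgeR adjusted p = 0.043). Its call was lost without any single library but KO replicate 2 (edgeR adjusted p = 0.0857 to 0.177), and with TMM factors computed without chromosome 10 (0.0761). Rps26 passed without KO replicate 2 (-0.28, edgeR adjusted p = 4.4e-06) and without a filter (0.00926). Rps12 lost its call without KO replicate 2 or WT replicate 1 or 2 (0.0643, 0.111 and 0.149), Rps15 without WT replicate 1 or 2 (0.0891 and 0.0617) and Amd1 without WT replicate 1 (0.0684).

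Of the 9 chromatin genes 6 were higher and 2 lower, with a median of 0.25. The histone deacetylase Hdac2 had 3594, 3754 and 3610 reads in KO and 2603, 2769 and 2772 in WT, a rise of 0.65 ± 0.06. Smarcc2, a subunit of the BAF remodelling complex, rose by 0.55 ± 0.05. Tet1, which oxidises methylated cytosine, was lower at -0.52 ± 0.15 and Arid5b, a cofactor of histone demethylation, at -0.40 ± 0.08. Without WT replicate 1, Tet1 was at -0.33 and lost its call (edgeR adjusted p = 0.0753). Jmjd1c lost its call without KO replicate 1 or 3 or WT replicate 2 or 3 (edgeR adjusted p = 0.0705 to 0.0983), and Tcf3 without WT replicate 2 (0.0758).

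The matrix and secreted fibroblast genes had quartiles 1.07 log2 units apart, against 0.56 for all members. Of 17 members 11 were higher and 4 lower, with a median of 0.48 and a range of -1.77 to 2.78. Ccn2, the matricellular connective tissue growth factor, had 3138, 3582 and 3222 reads in KO and 522, 545 and 617 in WT, a rise of 2.78 ± 0.07. The collagen VI chains Col6a1 and Col6a2 rose by 0.63 ± 0.05 and 0.39 ± 0.05, and Chst11, a sulfotransferase of chondroitin, by 1.35 ± 0.11. Decorin (Dcn), a small proteoglycan that binds collagen fibrils, went the other way, with 2565, 2762 and 2738 reads in KO and 10169, 10254 and 11793 in WT, a difference of -1.77 ± 0.06. Lumican (Lum), a proteoglycan of the same family, had 234, 235 and 199 reads in KO and 801, 723 and 799 in WT, at -1.58 ± 0.08. Dcn lies at chr10:97479609-97518143 and Lum 47.0 kb after it at chr10:97565128-97572703 (GRCm38, plus strand), with no other member between them, while the members on either side, Btg1 and Atp2b1, stood at 0.15 and 0.46. Col18a1, a basement membrane collagen, was at -1.47 ± 0.15 and the protease Mmp11 at -0.26 ± 0.07. Gja1 stood at -0.00 ± 0.06 and Timp3 at -0.17 ± 0.09, neither past the test, though Timp3 passed without KO replicate 3 (-0.25, edgeR adjusted p = 0.0462) and without a filter on low counts (0.0169).

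The members furthest from the chromosome's median were set apart by far more than its shift. Btbd11, a protein with BTB and ankyrin domains at chr10:85386814-85660292 (plus strand), had 182, 145 and 207 reads in KO and 0 in each WT library. Slc6a15, a neutral amino acid transporter at chr10:103367783-103419377 (plus strand), had 95, 96 and 82 reads in KO and 0 in each WT library. Sobp, a nuclear protein of inner ear development, had 66, 58 and 66 against 0. Against the level that 3 reads per library would give, these were at least 69.2-fold, 35.2-fold and 24.6-fold higher in KO. They are among 11 members that met the read minimum only through the 3 KO libraries, with under 10 reads in each WT library, so that a difference was fixed by the minimum and their values are a description (5 members met it only through WT). Adgrg6, an adhesion receptor, and Trhde, a peptidase that inactivates thyrotropin-releasing hormone, were also without a read in WT and had 129 and 108 reads over the 3 KO libraries, at least 16.7-fold and 14.0-fold higher. They lie below the read minimum for naming genes and were added after their values were seen.

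Cd24a, a small glycoprotein of the cell surface, had the most reads among these genes, with 3710, 3995 and 3704 in KO and 133, 141 and 155 in WT, a log2 difference of 4.95 ± 0.07. Nhsl1, a regulator of actin at the cell edge, had 189, 185 and 177 against 9, 9 and 7 (4.66 ± 0.21). Irak3, an inhibitor of Toll-like receptor signalling, had 70, 37 and 43 against 4, 4 and 3 (3.94 ± 0.41). Nhsl1 and Irak3, like Adgrg6, Trhde and Gm47220, are also among the 11 that met the minimum only through KO. Fstl3, a secreted binder of activin, was at 3.09 ± 0.19 with 148 to 164 reads in KO and 15 to 27 in WT, and Rgs17, a brake on G protein signalling, at 2.85 ± 0.21 with 138 to 156 in KO and 16 to 30 in WT. The long noncoding RNA gene Gm47223 and the pseudogene Gm47220, 1.1 kb apart and 88.0 kb after Slc6a15 on the same strand, were higher by 4.95 ± 0.21 and 5.48 ± 0.48. The counting was not by strand, so reads of overlapping genes on opposite strands cannot be told apart, and the pseudogene's reads may be shared with its parent.

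On the lower side, after Tnfaip3, came the pseudogene Gm5424 at -2.07 ± 0.15 and Arhgap9, with 18, 15 and 21 reads in KO and 75, 88 and 78 in WT, at -1.93 ± 0.24. Lrrc75b was at -1.67 ± 0.23, Armc2, a protein of the sperm flagellum, at -1.06 ± 0.25, C2cd4c at -1.05 ± 0.20 and Dnmt3l, a cofactor of de novo DNA methylation, at -1.05 ± 0.15. These lower genes did not sit in one stretch. Apart from Dcn and Lum, none of the 10 was next to another of them among the members. Each log2 difference given for a named gene as higher or lower passed the edgeR test at an adjusted p under 0.05, which for the members that met the minimum through 1 genotype is no support.

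**Figure D4:**
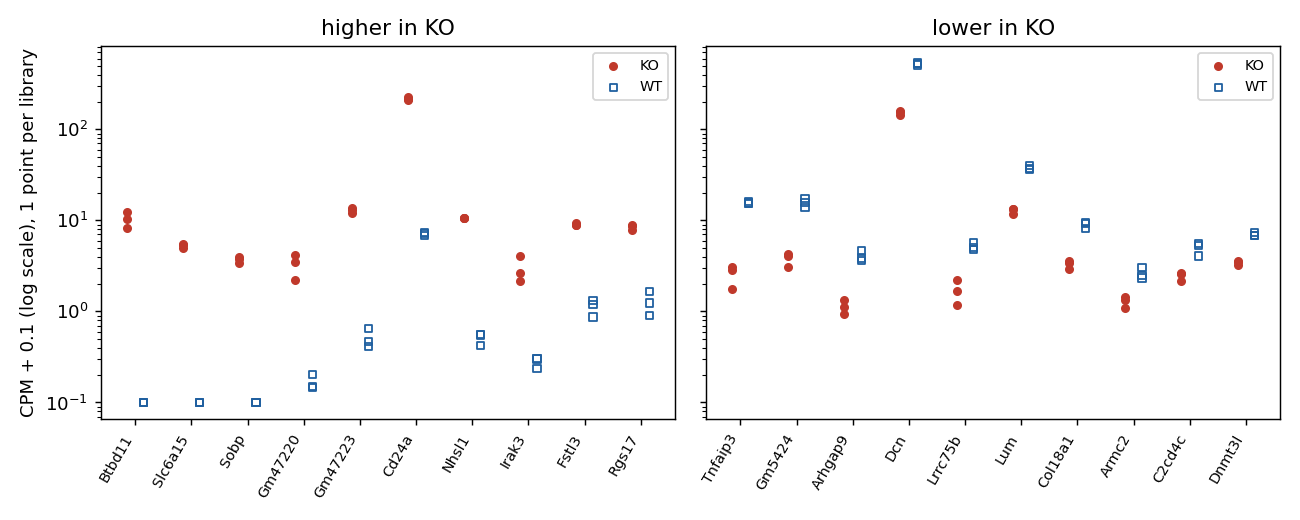
CPM plus 0.1 on a log axis in each KO library (red circles) and WT library (open blue squares) for the 10 chromosome 10 genes with the largest rise (left) and the 10 with the largest fall (right) among those called, with no overlap between genotypes and a mean of at least 50 reads in the higher genotype, so that the separation comes from the choice of genes. The points show its size, and Btbd11, Slc6a15 and Sobp are at 0 in the 3 WT libraries.

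The circRNA libraries gave a readout that the choice of the chromosome did not use. CircRNAs form when a downstream splice donor joins an upstream acceptor of the same transcript, so a circle is made from the same precursor as the mRNA of its host gene. The whole-cell libraries listed 503 circRNAs on chromosome 10 out of 10700 in all, 360 of them in each of the 4 libraries, with a median of 13 junction reads summed over the 4. Both ends of 495 lay on exon edges of one annotated transcript, in 191 host genes of which 186 are members. Utrn, the gene of the dystrophin relative utrophin, held 19 of them, Ppp1r12a 11 and Slc41a2 10, while 89 hosts held 1 each. The median spliced length was 514 nt.

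The junctions of 5 circRNAs are shown as examples, taken from the 10 with the most whole-cell reads and the 5 with the smallest p. Each is the last 20 bases of the donor exon in lower case followed by the first 20 of the acceptor exon in capitals, 5′ to 3′ on the host strand, read from GRCm38.
circSh3rf3, chr10:58983921-59007137, plus strand: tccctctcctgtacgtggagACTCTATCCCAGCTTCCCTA
circShprh, chr10:11178734-11185462, plus strand: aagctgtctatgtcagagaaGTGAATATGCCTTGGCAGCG
circSlc18b1, chr10:23798746-23823018, plus strand: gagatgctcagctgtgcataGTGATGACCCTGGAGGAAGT
circAkap7, chr10:25267308-25289730, minus strand: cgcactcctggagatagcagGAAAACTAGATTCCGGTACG
circSrgap1, chr10:121925816-121931509, minus strand: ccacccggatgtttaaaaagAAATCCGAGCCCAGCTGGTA
In each of them the intron bases next to the junction are GT after the donor and AG before the acceptor.

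In whole cells, the share of junction reads from chromosome 10 was not raised in KO. It was 4.13% and 4.33% in the KO libraries (95% Wilson intervals 3.97% to 4.30% and 4.16% to 4.51%) and 4.42% and 4.57% in the WT libraries (4.25% to 4.59% and 4.40% to 4.75%), out of 50341 to 58165 junction reads. The means were 4.23% ± 0.142 and 4.50% ± 0.108 (SD, n = 2 each). The difference of -0.26 percentage points was in the direction opposite to the mRNA as titled, and would run with it if the headings of the mRNA files were right (exact permutation of the libraries, both sides, p = 0.333, below which 2 against 2 libraries cannot go). The intervals cover counting error only. That of KO replicate 2 overlaps both WT intervals, and that of KO replicate 1 overlaps that of WT replicate 1. Leaving out the 10 most abundant circRNAs of the chromosome gave 3.42% and 4.04% in KO and 3.69% and 3.93% in WT, which overlap. Counted as listed circRNAs, chromosome 10 held 4.63% and 4.66% in KO and 4.74% and 4.73% in WT.

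The cytoplasmic libraries went the other way. Chromosome 10 took 4.21% and 4.07% of junction reads in KO (95% Wilson intervals 4.04% to 4.39% and 3.92% to 4.22%) and 3.27% and 3.30% in WT (3.15% to 3.40% and 3.18% to 3.43%), 1.26-fold more in KO, and the intervals did not overlap between genotypes (exact permutation p = 0.333, again the smallest possible). In the nuclear libraries, of only 2189 to 4383 junction reads, it was 3.61% and 3.81% in KO and 4.02% and 4.14% in WT, with intervals that overlapped. The difference between the cytoplasmic and the whole-cell contrast was 1.11 percentage points (exact permutation of genotypes within each fraction, p = 0.0556, the smallest that the 36 relabellings allow). By share of reads, the direction of the mRNA as titled was thus that of the cytoplasm. The opposite direction, which the file headings would give, was that of whole cells and nuclei. Counted as listed circRNAs, chromosome 10 held means of 4.35% in KO and 4.19% in WT in cytoplasm, 1.04-fold more. In nuclei it held 4.36% and 4.295%, with overlap. Without the 10 most abundant circRNAs, the means were 3.73% and 2.80% in cytoplasm, and the nuclear libraries overlapped.

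**Figure D5:**
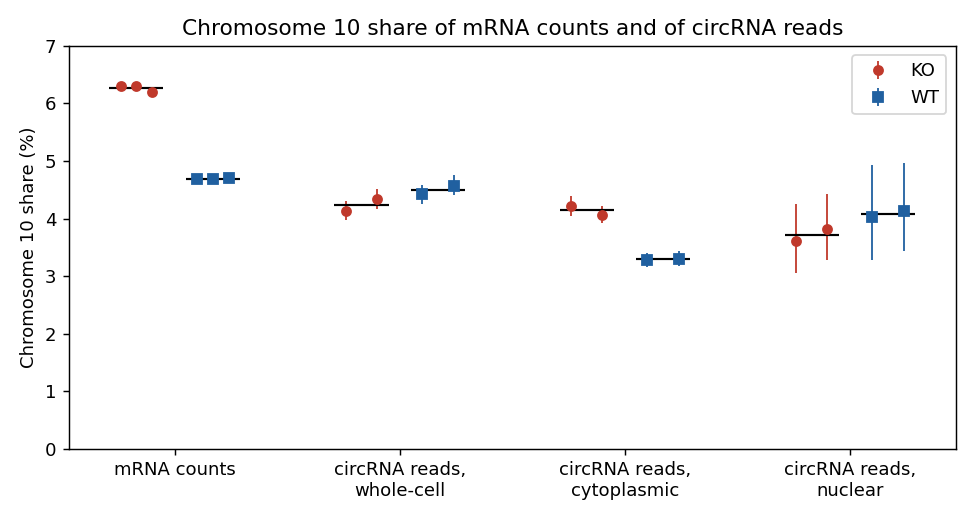
Share of chromosome 10 (percent) in the counted mRNA reads and in the circRNA junction reads of whole-cell, cytoplasmic and nuclear libraries, one point per library with its 95% Wilson interval and the mean of each genotype as a black bar. The KO libraries lie above the WT libraries in mRNA and in cytoplasm and below them in whole cells and nuclei.

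Of the 420 chromosome 10 circRNAs with at least 10 whole-cell reads in sum, none passed the edgeR test at an adjusted p under 0.05, as none of the 8903 tested genome-wide did (0.0% in each direction). At an unadjusted p under 0.05, 81 were higher in KO and 92 lower, or 19.3% and 21.9%, against 19.9% and 18.4% of all circRNAs tested. The smallest adjusted p, 0.058, was shared by 11 chromosome 10 circRNAs, so the count of 0 stood close to the threshold and depended on the scaling. With DESeq2 size factors in edgeR 102 passed, with library totals alone 113 and with the replicate number as a block 117, while DESeq2 itself called 1, with an adjusted p for only 129 of the 420. Leaving out a single library left 1 library in a group, and the median log2 difference on chromosome 10 then ran from -0.27 to 0.04. With no library left out, the median was -0.13 on chromosome 10 and -0.08 on the other autosomes, whose medians ran from -0.25 to 0.04. In cytoplasm 147 of 381 were called higher and 68 lower, 38.6% and 17.8%, against 30.0% and 23.5% of all circRNAs tested there (at an unadjusted p under 0.05, 159 and 92, against 32.3% and 29.2% of all), with a median of 0.53 on chromosome 10 and -0.80 to 0.06 on the other autosomes.

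The whole-cell values of circles were set beside those of their hosts. Circles within the span of Uty had reads in the WT circRNA libraries, while Uty mRNA had 0 reads in WT. Whether both assays used the same WT cells was not tested, so circles and host mRNA are set side by side as a description. Of the 324 tested circRNAs whose host mRNA was higher in KO, 152, or 46.9%, were above 0. This was near the 47.6% of all tested chromosome 10 circRNAs and the 48.9% of those on other autosomes. The median of the 324 was -0.15 where the median of their hosts' mRNA was 0.49. Of the 68 whose host was not called 35, or 51.5%, were above 0, and of the 16 with a lower host 7, with a median of -1.22 where that of their hosts was -0.45. If the mRNA headings were right, the 324 hosts would be lower in KO, and 53.1% of their circles were not above 0. Several of these circles share a host, so they are not independent. Among the 188 circRNAs tested in both whole cells and cytoplasm, 53 were above 0 in both, 48 below 0 in both, 54 above 0 in cytoplasm alone and 33 in whole cells alone. Across the 503 whole-cell circRNAs the Spearman correlation was 0.77 between the KO replicates and 0.73 between the WT replicates, and -0.16 to 0.06 between libraries of different genotype, a description over low counts in which a circRNA had to be listed in at least 1 library.

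The most abundant circRNAs varied within the KO genotype. That of Srgap1 (exons 2 to 3) had 62 and 8 whole-cell reads in KO and 72 and 50 in WT. That of Cpsf6 (exons 2 to 10), a cleavage and polyadenylation factor, had 67 and 9 in KO and 51 and 24 in WT. That of Akap7 (exons 2 to 5), an anchor of protein kinase A, had 46 and 10 in KO and 35 and 48 in WT, beside a host mRNA that was higher by 0.83. In each, KO replicate 2 was far below KO replicate 1. KO replicate 2 was also the lower of the pair for the circles of Ascc3 (52 and 28 in KO, 41 and 34 in WT), Cnot2 (42 and 7, against 30 and 30), Rnf217 (37 and 16, against 29 and 19), Sept10 (23 and 10, against 23 and 40), Utp20 (38 and 13, against 22 and 21) and Pcbp3 (22 and 12, against 41 and 9). None of these 9 had an unadjusted p under 0.05 in whole cells. Without KO replicate 2 the chromosome's share differed by -0.36 percentage points, and without KO replicate 1 by -0.16.

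The circle with the most reads, at chr10:22285691-22307298, had 42 and 41 reads in KO and 94 and 94 in WT, a log2 difference of -1.13 ± 0.55 (edgeR adjusted p = 0.156). Its start is an exon edge of H60b and its end one of the pseudogene C920009B18Rik, both on the plus strand within the span of Raet1e, a stress ligand of the NKG2D receptor, and no annotated transcript holds both ends. Raet1e mRNA, named here after its values were seen, was higher in KO by 2.02 ± 0.24 with 76, 88 and 104 reads against 19, 23 and 35 (edgeR adjusted p = 1.4e-05). These genes belong to a family of near-identical copies, and the assignment of their reads is uncertain.

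The 5 circRNAs with the smallest p separated the genotypes at low counts. circSh3rf3 (exons 2 to 3, 372 nt), from a ubiquitin ligase scaffold, had 38 and 36 whole-cell reads in KO and 0 and 1 in WT, a ratio of 77.0 (95% counting interval 13.4 to 3081). It had no read in the 4 cytoplasmic libraries, and in the nuclear libraries 2 and 3 in KO and 9 and 9 in WT, opposite to the whole-cell values. circShprh (exons 15 to 18), from a ubiquitin ligase of DNA repair, had 12 and 17 in KO and 0 and 1 in WT, a ratio of 30.2 (5.002 to 1232). circActr6 (exons 2 to 8), from a subunit of the complex that deposits H2A.Z, had 9 and 10 against 1 and 1, a ratio of 9.88 (2.38 to 87.5). circGrik2 had 5 and 5 in KO and 0 in WT, at least 1.74-fold higher, and in cytoplasm it was called higher with 7 and 4 against 1 and 0 (edgeR adjusted p = 0.00237). circSlc18b1 had 0 in KO and 5 and 5 in WT, at least 1.595-fold lower in KO, although its host's mRNA was higher by 0.31. In whole cells all 5 had an adjusted p of 0.058 in edgeR. All 5 passed with DESeq2 size factors, with library totals alone and with the replicate block (edgeR adjusted p at most 0.01003, 0.0057 and 0.0074). Under these settings 20.6%, 22.5% and 23.1% of all circRNAs tested passed. circSh3rf3 also passed in DESeq2 itself (adjusted p = 0.026). They were chosen by their p, and the sizes of their differences are a description.

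The circRNAs of Sh3rf3 differed among themselves. The gene held 8 circles with 77 and 74 whole-cell reads in KO and 39 and 29 in WT in sum, and that one circle alone made up 38 and 36 of the KO reads. The circle of exons 2 to 4, with the same acceptor, had 10 and 4 reads in KO and 17 and 6 in WT, and that of exon 2 alone 3 and 6 against 5 and 5. Those of exons 6 to 8 and 6 to 7 had more reads in KO, 9 and 10 against 2 and 4, and 5 and 8 against 1 and 2, with overlap in neither. The circle of exon 4 alone had 1 and 0 whole-cell reads in KO and 5 and 7 in WT (edgeR adjusted p = 0.058), and was higher in cytoplasm, with 19 and 14 against 1 and 0 (edgeR adjusted p = 0.00014). Sh3rf3 mRNA was higher by 0.38 log2 units (edgeR adjusted p = 0.0134), near the median of the chromosome.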

How the data were processed

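The mRNA files hold read counts per gene, which the authors deposited without normalization after HISAT2 alignment to mm10 (GRCm38) and featureCounts, run without a strand option. The circRNA files hold counts of backsplice junction reads, deposited by the authors from find_circ. Depth was 16974062 to 22057323 counts per mRNA library, 50341 to 81941 junction reads per whole-cell or cytoplasmic library and 2189 to 4383 per nuclear library. No molecular identifiers are given.

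Genes with at least 10 reads in at least 3 libraries, and circRNAs with at least 10 reads in sum, were tested by edgeR (version 4.0.16, R 4.3.3) with TMM scaling and the quasi-likelihood test on the deposited counts, with Benjamini-Hochberg adjustment over the whole table and a threshold of 0.05, and by DESeq2 (version 1.42.0) as an alternative. Tests were tried on simulated data first. Shares were compared by two-sided exact permutation of libraries (scipy 1.17.1), with Wilson intervals at 95%. A library's chromosome deviation is the median over genes of log2 CPM (prior count 0.5) minus each gene's mean over the 6 libraries, with that of the other autosomes subtracted. Symbols of 55141 of 55401 gene identifiers came from a table of gene names, and exons and gene classes from GENCODE M21, with circRNAs taken with starts counted from 0 (97.2% of circRNA starts were then exon starts).

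The members, lists and tests were chosen with earlier results of these data known. Named were the listed genes, Btbd11, Slc6a15 and Xpo4, the 10 largest rises and 10 largest falls among genes called, separated in every library and with a mean of at least 50 reads in the higher genotype, the 10 most abundant whole-cell circRNAs and the 5 with the smallest p. A circRNA of Adarb1 was also in the rule and is not analysed here. Same-numbered mRNA replicates correlated in their deviations at 0.05, 0.03 and -0.07, so the numbers were not taken as pairs.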

Additional observations from a re-analysis of the deposited data

Results flagged for a closer look

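The chromosome 10 share of circRNA junction reads was higher in KO than in WT in the cytoplasmic libraries and lower in the whole-cell libraries, in each pair of libraries, and the 2 contrasts differed by 1.11 percentage points (exact permutation within fractions, p = 0.0556, the smallest possible). The cytoplasmic libraries, which lay outside the planned comparison, showed 0.85 percentage points more in KO (4.14% ± 0.104 against 3.29% ± 0.0219, SD, n = 2 each, exact permutation p = 0.333), while their KO libraries held fewer junction reads in all (50629 and 63335, against 77818 and 81941 in WT). The part of this depth in the difference was not tested.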

How the results depend on the processing

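The members called higher numbered 437 to 465 and those called lower 52 to 66 under other scalings, filters, DESeq2 and the replicate block, and 423 to 455 and 47 to 54 without single libraries. The distance of the chromosome 10 median from the other autosomes was 0.48 without a filter on low counts and 0.45 to 0.47 without single libraries. The lowest 10 Mb window median was 0.22 to 0.27 without single libraries and 0.17 in 5 Mb windows. With the replicate block, there were 452 calls higher, 59 lower and a distance of 0.47, and calls for Cdk19 and Rps26 (edgeR adjusted p = 0.0428 and 0.0378). It gave 117 whole-cell circRNA calls among the 420 of chromosome 10, and called 23.1% of all circRNAs tested, where there were none without it. Nothing in the labels makes the numbers pairs (circRNA deviations of same-numbered whole-cell libraries correlated at 0.02).

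Whole-cell circRNA calls were 102 with DESeq2 size factors, 113 with library totals, 1 with DESeq2, 0 without a filter and 0 to 44 without single libraries, and 215 in cytoplasm, an alternative added after seeing the data, as were the nuclear shares. The cause was not tested. The whole-cell share difference was -0.36 to -0.16 percentage points without single libraries and 0.85, reversed, in cytoplasm. Among the named genes, 39 gene-setting pairs lost a call, 13 gained one and 16 changed sign, all 16 in genes without a call. Ptbp1 was at -0.000949, -0.000944 and -0.000558 with DESeq2, its size factors and filterByExpr, and Gja1 at 0.0165 with TMM without chromosome 10 and 0.000672 with the replicate block. Without single libraries, Ptbp1 lay between -0.0190 and 0.0356, Gja1 between -0.0313 and 0.0253, Dot1l between -0.0612 and 0.0573, Shmt2 between -0.0337 and 0.0656 and Timeless between -0.133 and 0.0354. Among circRNAs without a call, circCpsf6 turned to -0.307 with the replicate block. Without single libraries circCpsf6 ran from -1.953 to 0.860, circSrgap1 from -2.82 to 0.0482, circAscc3 from -0.328 to 0.495, circAkap7 from -1.948 to 0.173, circCnot2 from -1.99 to 0.509, circRnf217 from -0.490 to 0.647, circUtp20 from -0.629 to 0.843 and circPcbp3 from -1.19 to 0.944. The circRNA comparison is limited by 2 libraries per group and few reads per junction.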
